A study of Homo sapiens with 33 samples.

Results

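The integrated stress response and amino acid genes form a set of 37 named genes among the 58735 genes of the table, chosen by gene name, and all 37 have a row. The integrated stress response is the pathway in which kinases phosphorylate the translation initiation factor eIF2 when amino acids run short, haem is lacking, viral RNA is present or the endoplasmic reticulum is loaded with unfolded protein. Bulk protein synthesis then slows, while the mRNA of the transcription factor ATF4 is translated better, and ATF4 with its partners of the C/EBP family turns on genes for amino acid synthesis, amino acid import and tRNA charging. Because ATF4 is controlled mainly at translation, its mRNA level and the level of its protein can differ. The set holds 7 transcription factors of the response, 4 feedback, death and growth regulators, 8 enzymes of serine, glycine, asparagine and mitochondrial one-carbon metabolism, 2 transsulfuration enzymes, 6 amino acid transporters, 8 tRNA synthetases and 2 secreted or surface proteins.

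The cells were clone 24 of H9-DDdCas9VP192-FOXL2, a human embryonic stem cell (hESC) line that carries guide RNAs to the FOXL2 promoter and a drug-controlled, dead Cas9 fused to an activator. FOXL2 is a forkhead transcription factor of the early ovary. All wells were taken through a gonadal differentiation of 14 days, in serum-free medium with a B-27 supplement, and CTRL wells received neither drug after day 4. IND wells received doxycycline (DOX) and trimethoprim (TMP) from day 4 onward, and no uninduced line with both drugs was analysed here, so an effect of FOXL2 cannot be told apart from an effect of the drugs or of the activator. Bulk RNA-seq covered day 4, before the drugs, and CTRL and IND on days 6, 8, 10, 12 and 14, as 11 groups of 3 technical replicates of 1 differentiation. All p-values therefore measure the spread between wells of that differentiation. Levels are CPM, the counts of a gene per 1000000 counts of its library, scaled by the trimmed mean of M-values over all 33 libraries, and the change is the log2 fold change with its standard error (SE).

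The 33 libraries held between 23940837 and 51912815 counts, with a median of 41420455. In every IND library FOXL2 was at 148 CPM or more, up to 577 CPM, and elsewhere it did not pass 0.388 CPM. IND replicate 2 of day 10 stood apart from its group, with 23940837 counts, 19254 genes with a count against 28799 and 28848 in the other two, 0.691% mitochondrial counts, and 23.3% of genes more than 2-fold away from the mean of the other two. IND replicate 1 of day 12 had 26262 genes with a count against 28196 and 27393 in its group, and replicate 3 of day 4 had 1.14% mitochondrial counts against 3.34% and 4.28%. They stood apart less, with 3.28% and 3.91% of genes more than 2-fold away. Counts that rest on these libraries are given with and without them, and so are the values of single genes where leaving them out changed a call or a direction. CTRL replicate 2 of day 14 had 26211 genes with a count against 28126 and 26644, and 1.99% mitochondrial counts against 3.24% and 3.47%. Without it 10 genes of the set were called on day 14, against 12 (7.15% and 8.43% of all genes).

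The promoters of several of the 37 genes carry the composite C/EBP and ATF element through which ATF4 is known to act, with the letters TGATGNAA. RefSeq promoter windows (GRCh38.p14, 250 bases before to 50 after the start) were found for 32 of the 37 genes, and 11 of the 32 (34.4%) held the letters on either strand, against 4.46% of 27305 genes. The genes were ATF3, CEBPG, CHAC1, ASNS, SLC3A2, SLC7A1, GARS, MARS, AARS, NARS and IARS. Sites in 7 of them are printed because these genes come from 4 roles of the set. Each is written 5′ to 3′ on the strand of its gene, the capitals mark the match, and a match that reads TTNCATCA lies on the opposite strand.
ATF3, chr1:212565196-212565243, plus strand: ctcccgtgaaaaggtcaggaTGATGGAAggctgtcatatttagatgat
CEBPG, chr19:33374051-33374098, plus strand: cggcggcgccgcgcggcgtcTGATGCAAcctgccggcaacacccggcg
CHAC1, chr15:40953242-40953289, plus strand: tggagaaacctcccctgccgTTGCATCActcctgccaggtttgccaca
ASNS, chr7:97872449-97872496, minus strand: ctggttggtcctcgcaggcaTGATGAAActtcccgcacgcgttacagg
AARS, chr16:70289666-70289713, minus strand: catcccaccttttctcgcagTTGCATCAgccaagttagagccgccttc
GARS, chr7:30594825-30594872, plus strand: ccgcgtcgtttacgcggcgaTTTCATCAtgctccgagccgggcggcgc
MARS, chr12:57488053-57488082, plus strand: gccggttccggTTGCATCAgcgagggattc
Positions were counted from the RefSeq start of the window, with minus signs for bases before it. That start can lie inside the gene coordinates printed here, as it does for CHAC1. The first base of the match lay at -191 in ATF3, -42 in CEBPG, -209 in CHAC1, -68 in ASNS, -187 in AARS, -33 in GARS and -4 in MARS. A match of letters is a description and does not show that a factor binds there.

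The first comparison asked how the 37 genes differed between IND and CTRL on each day. Genes of amino acid import, serine and one-carbon metabolism and tRNA charging were lower in IND, most of all on day 8, whereas ATF4 itself was not called on any day. On day 6, 18 of 37 genes were lower and 0 were higher, where 2.37% of all 19133 genes tested were lower and 1.29% higher, by edgeR's quasi-likelihood test at a Benjamini-Hochberg adjusted p under 0.05. On day 8, 28 of the 36 genes tested were lower and 0 higher, against a background of 6.67% lower and 7.49% higher. On day 14, 12 of 37 were lower and 0 higher, against 5.22% lower and 3.21% higher. The median log2 fold change of the genes tested was -0.44 on day 6, -0.67 on day 8 and -0.29 on day 14, and the median of all genes was 0.00 on each of these days. Genes higher in IND at an unadjusted p under 0.05 numbered 0 on days 6, 8 and 10 and 1 on days 12 and 14, and DESeq2 called 0 higher on any day. The count of day 6 was 11 without IND replicate 2, and that of day 14 was 6 without IND replicate 3. Of all genes, 1.78% and 4.64% were called in these fits.

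**Figure D1:**
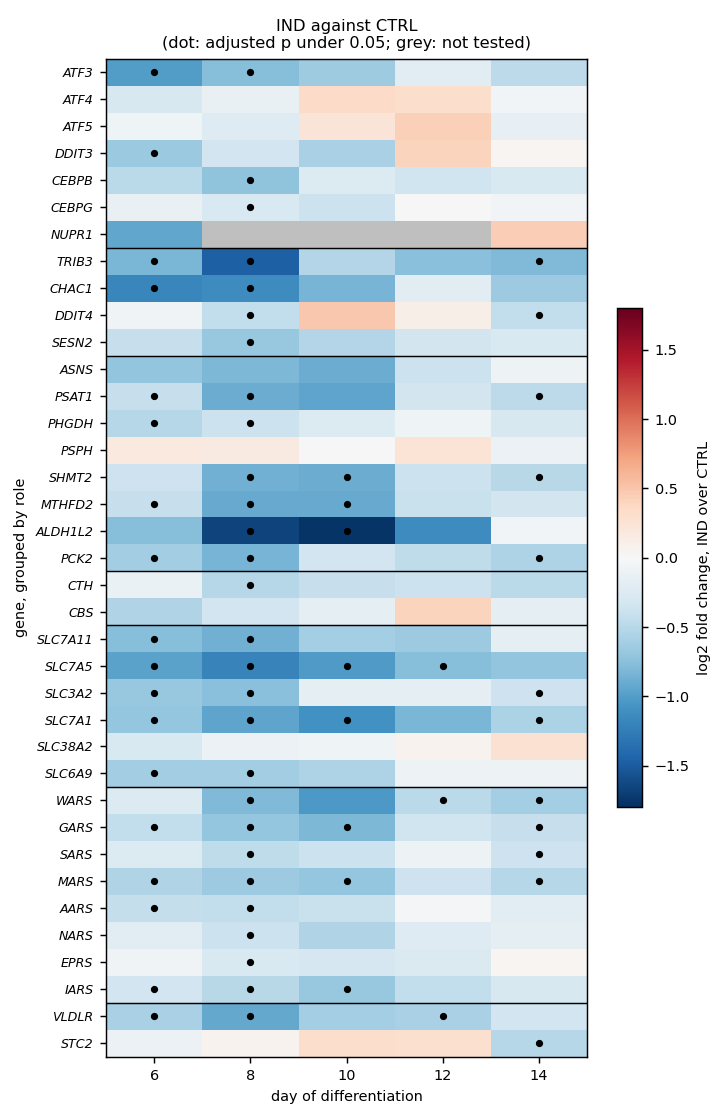
Log2 fold change of IND over CTRL (colour) for the 37 genes (rows, grouped by role) on days 6 to 14 (columns); a dot marks an adjusted p under 0.05 and grey marks genes not tested. The 28 dots of day 8 are all on blue, lower cells, while ATF4, ATF5, NUPR1, ASNS, PSPH, CBS and SLC38A2 have no dot on any day.

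On day 10, 8 of 36 genes were lower and 0 higher, against 1.18% of all genes lower and 0.856% higher. Without IND replicate 2, 27 of 36 were lower and 0 higher, against 9.51% and 8.74% of all genes. The 27 held all 8 genes called with every library and 19 more, namely ATF3, CEBPB and CEBPG, the regulators TRIB3, CHAC1 and SESN2, the enzymes PHGDH, PSAT1, PCK2 and CBS, the transporters SLC3A2, SLC7A11 and SLC6A9, the tRNA synthetases WARS, AARS, SARS, NARS and EPRS, and VLDLR. Leaving out any 1 of the other 5 libraries of day 10 gave 0 genes called, where 0.0532% to 0.352% of all genes were called. On day 12, 3 of 36 genes were lower and 0 higher, against 3.04% lower and 2.38% higher of all genes, and the 3 were SLC7A5, WARS and VLDLR. Without IND replicate 1, 18 of 36 were lower and 0 higher on day 12, against 5.49% and 4.16% of all genes. The 15 genes called in addition were CEBPB, SESN2, ALDH1L2, MTHFD2, PHGDH, PSAT1, PCK2, SHMT2, SLC3A2, SLC7A1, SLC7A11, GARS, MARS, IARS and SARS. Without CTRL replicate 2 or without CTRL replicate 3 the count of day 12 was 0, and without IND replicate 3 it was 1. Of all genes, 2.41%, 2.03% and 4.36% were called in these fits. In the account of single genes the days of a call are those with all libraries, to be read beside these additional genes. The median log2 fold change was -0.54 on day 10 with all libraries and -0.53 without IND replicate 2. On day 12 it was -0.29 with all libraries and -0.31 without IND replicate 1.

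**Figure D2:**
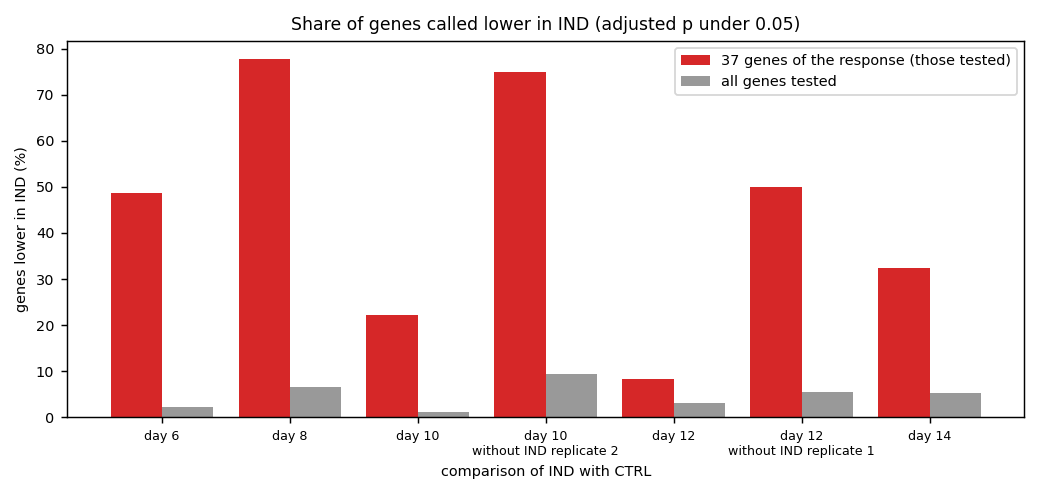
Percent of genes called lower in IND (vertical axis) for the tested genes of the set (red bars) and for all genes tested (grey bars), by day, with days 10 and 12 also shown without the library that stood apart. The red bar is 77.8% on day 8 and 75% on day 10 without IND replicate 2, and the grey bars stay under 10%.

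In either direction, 3.66%, 14.2%, 2.03%, 5.42% and 8.43% of all genes were called from day 6 to day 14. With all libraries kept, every IND library lay below every CTRL library for 28 of the genes tested on day 6, 29 on day 8, 23 on day 10, 18 on day 12 and 22 on day 14, against 11.0%, 16.9%, 16.2%, 15.7% and 13.9% of all genes.

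Averaged over the 5 days in 1 model of the 30 CTRL and IND libraries, 28 of 37 genes were lower in IND and 0 higher, against 12.4% of 22442 genes lower, 11.8% higher and 24.2% in either direction. Without IND replicate 2 of day 10 and IND replicate 1 of day 12 it was 30 lower, now with ATF4 and DDIT3, and 1 higher, PSPH (0.10, adjusted p = 0.0346), against 15.2% and 14.4% of all genes. Of the 37 genes, 30 were called lower on at least 1 day, 22 on at least 2 days and none on all 5. With IND replicate 2 of day 10 and IND replicate 1 of day 12 left out, it was 31, 27 and 6, and the 6 genes lower on all 5 days were SLC7A1, SLC3A2, PSAT1, PCK2, GARS and MARS. With all libraries, the 4 genes called on 4 days were the transporters SLC7A5 and SLC7A1 and the tRNA synthetases GARS and MARS. Whether the effect of induction differed between days was tested as an interaction, which called 0 of 37 genes with edgeR, against 2.38% of all genes. At an unadjusted p under 0.05 it was 14 genes, and DESeq2 called 8, where it called 5.89% of all genes. The lowest adjusted p of edgeR were 0.0601 for ALDH1L2 and 0.0688 for PSAT1. Without IND replicate 2 of day 10 the interaction called 3 genes, ALDH1L2 (adjusted p = 0.0303), PSAT1 (0.0117) and DDIT3 (0.0239), against 4.38% of all genes.

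Amino acid transporters were the role with the largest share of calls on day 6, where 5 of 6 were lower. SLC7A5 (chr16:87830023-87869488), the light chain of the exchanger that imports leucine and other large neutral amino acids, stood at 596, 509 and 426 CPM in CTRL and at 230, 277 and 263 CPM in IND on day 6. On day 8 it was at 490, 633 and 670 CPM in CTRL and at 266, 273 and 233 CPM in IND. No IND library reached the lowest CTRL library on either day, and the log2 fold change was -0.97 ± 0.122 (SE, n = 3 per group, edgeR adjusted p = 0.000208) and -1.20 ± 0.118 (adjusted p = 0.00016). On day 10 the 3 IND libraries lay between 262 and 268 CPM, including the library that stood apart, against 499 to 579 CPM in CTRL. The fall on day 10 was -1.02 ± 0.104 (adjusted p = 0.00927), and on day 12 it was -0.77 ± 0.134 (adjusted p = 0.0141). On day 14 CTRL spread from 194 to 335 CPM, IND lay between 135 and 162 CPM, and the difference of -0.71 did not pass the test (adjusted p = 0.113).

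SLC7A1 (chr13:29509410-29595688), the carrier for the cationic amino acids arginine and lysine, was at 83.5, 85 and 94.8 CPM in the day 8 CTRL libraries and at 49.1, 44.9 and 40.7 CPM in IND. The groups did not overlap on any of the 5 days. From day 6 to day 14 its log2 fold change was -0.70, -0.95, -1.09, -0.82 and -0.57, called on all but day 12 (adjusted p = 0.052). Without IND replicate 1 the change of day 12 was -0.60 ± 0.0675 (adjusted p = 0.000707). SLC3A2, the heavy chain that carries SLC7A5 and SLC7A11 to the cell surface, was at 275, 343 and 347 CPM in CTRL and 186, 204 and 179 CPM in IND on day 8 (-0.75 ± 0.0951, adjusted p = 0.000452). It was also lower on days 6 and 14, and on day 10 IND replicate 2 stood at 386 CPM against 206 and 204 CPM in the other two, so that the groups overlapped. SLC7A11, the cystine importer, was at 105, 125 and 110 CPM in CTRL and 66, 68.3 and 51.7 CPM in IND on day 8 (-0.86 ± 0.112, adjusted p = 0.000753), and it was lower on day 6 as well. SLC6A9, a glycine transporter, was at 23.9, 23.2 and 30.2 CPM in CTRL and 17.4, 16.3 and 16.1 CPM in IND on day 8 and was called on days 6 and 8. The sixth, SLC38A2, which takes up small neutral amino acids, was called on no day, with log2 fold changes between -0.27 and 0.28.

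The serine, glycine and one-carbon enzymes had 6 of 8 members lower in IND on day 8 and 4 of 8 on day 6. Without IND replicate 2 the same 6 genes were lower on day 10. ALDH1L2 (chr12:105019784-105084577), the mitochondrial dehydrogenase of formyl-tetrahydrofolate, had the largest fold change of the set, from a low level. On day 8 it stood at 7.86, 8.4 and 11.1 CPM in CTRL and at 2.57, 3.44 and 2.52 CPM in IND (-1.67 ± 0.198, adjusted p = 0.000287). On day 10 it was at 8.88, 10.4 and 8.84 CPM in CTRL and at 3.13, 1.64 and 3.35 CPM in IND (-1.77 ± 0.298, adjusted p = 0.0403), and without IND replicate 2 the change was -1.53 ± 0.155. By day 14 the groups overlapped, at 5.16, 4.25 and 9.02 CPM in CTRL and 5.06, 5.4 and 7.21 CPM in IND.

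MTHFD2 (chr2:74198562-74217565), which makes formyl units in mitochondria, was at 157, 158 and 194 CPM in CTRL and at 86.3, 89.6 and 93.1 CPM in IND on day 8 (-0.91 ± 0.0884, adjusted p = 8.68e-05). It was lower on days 6, 8 and 10, and its exons share 33.2% of their length with SLC4A5 on the other strand. SHMT2, which splits serine into glycine in mitochondria, was at 205, 235 and 259 CPM in CTRL and 123, 123 and 133 CPM in IND on day 8 (-0.87 ± 0.0872), and was lower on days 8, 10 and 14. PSAT1, the aminotransferase of serine synthesis, was at 231, 240 and 273 CPM in CTRL and 128, 135 and 137 CPM in IND (-0.89 ± 0.0774, adjusted p = 3.96e-05), and was lower on days 6, 8 and 14. None of these 3 enzymes overlapped between the groups on day 8.

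PHGDH, the first enzyme of serine synthesis, was at 678, 725 and 794 CPM in CTRL and at 500, 588 and 585 CPM in IND on day 8, a smaller change of -0.38 ± 0.0863 (adjusted p = 0.0135), and it was also lower on day 6. PCK2, the mitochondrial enzyme that makes phosphoenolpyruvate from oxaloacetate, was at 100, 110 and 123 CPM in CTRL and 58.8, 65.4 and 61.5 CPM in IND on day 8 (-0.83 ± 0.0863, adjusted p = 0.000118). It was lower on days 6, 8 and 14, and on day 10 IND replicate 2 stood at 133 CPM against 66.2 and 58.6 CPM in the other two. PSPH, which makes the last step of serine synthesis, was not called on any day, and its log2 fold changes lay between -0.11 and 0.25. ASNS, the asparagine synthetase, is among the classical targets of ATF4 and holds the element shown above. It was listed at only 0.605 to 4.62 CPM over the 33 libraries, and its exons share 44.6% of their length with AC079781.5 on the same strand, so its level is uncertain in that shared part. Its log2 fold change was -0.71, -0.81 and -0.89 on days 6, 8 and 10, not called on any single day. The -0.89 of day 10 rested on IND replicate 2, at 0.605 CPM against 2.35 and 2.33 CPM in the other two, and without it the value was -0.50 ± 0.19. Averaged over the 5 days ASNS was lower (-0.59 ± 0.156, adjusted p = 0.00557), though not without the libraries numbered 3 (-0.46 ± 0.21, adjusted p = 0.168). Of the transsulfuration enzymes, CTH, which releases cysteine from cystathionine, was lower on day 8 (-0.51 ± 0.13, adjusted p = 0.0249). CBS, the first enzyme of that route, was called on no day with all libraries, and on day 10 without IND replicate 2 it was lower (-0.67 ± 0.0988, adjusted p = 0.000335). CBSL is a near-identical copy of CBS, so its counts are uncertain.

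All 8 tRNA synthetases of the set were lower on day 8, with log2 fold changes between -0.80 and -0.27. WARS, for tryptophan, stood at 77.7, 88.6 and 100 CPM in CTRL and at 52.9, 45.8 and 52.6 CPM in IND (-0.80 ± 0.1, adjusted p = 0.000398), and was also lower on days 12 and 14. GARS, for glycine, was at 196, 202 and 216 CPM in CTRL and 120, 126 and 130 CPM in IND (-0.70 ± 0.0679, adjusted p = 8.86e-05). MARS, for methionine, was at 175, 200 and 212 CPM in CTRL and 126, 130 and 112 CPM in IND (-0.66 ± 0.0884, adjusted p = 0.000618). None of the 3 overlapped between the groups on any of the 5 days. SARS was at 181, 194 and 203 CPM in CTRL and at 137, 143 and 135 CPM in IND on day 8, and it was called on days 8 and 14. IARS was at 220, 237 and 248 CPM in CTRL and at 167, 169 and 158 CPM in IND, and it was called on days 6, 8 and 10. AARS, for alanine, was at 220, 236 and 234 CPM in CTRL and at 167, 171 and 163 CPM in IND, and it was called on days 6 and 8. NARS and EPRS were called on day 8, with -0.38 and -0.27, and on no other day with all libraries. Without IND replicate 2 they were lower on day 10 too, with -0.47 (adjusted p = 0.000412) and -0.24 (adjusted p = 0.0161).

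The feedback and growth regulators were all 4 lower on day 8. TRIB3 (chr20:362835-397559), a pseudokinase that restrains ATF4 and CHOP, was at 24.5, 34.6 and 41.6 CPM in CTRL and at 12, 15.6 and 8.41 CPM in IND on day 8 (-1.47 ± 0.283, adjusted p = 0.0193). On day 10 CTRL lay between 36.8 and 38.8 CPM, whereas IND was at 13.7, 52.3 and 12.2 CPM, the 52.3 CPM being replicate 2. With that library the groups overlapped and the change was -0.53 ± 0.558, and without it the change was -1.55 ± 0.0906 (adjusted p = 1.61e-07). The day 6 call of TRIB3 (-0.82 ± 0.192) was lost on leaving out CTRL replicate 1, CTRL replicate 2, IND replicate 1 or IND replicate 2, and the day 8 call on leaving out IND replicate 1.

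CHAC1 (chr15:40952962-40956519), an enzyme that breaks down glutathione, was at 22.7, 20.1 and 15.9 CPM in CTRL and at 6.94, 10.5 and 8.11 CPM in IND on day 6 (-1.18 ± 0.178, adjusted p = 0.000816), the largest called change of that day in the set. On day 8 it was at 14.4, 20.3 and 22.5 CPM in CTRL and 8.32, 9.72 and 7.86 CPM in IND (-1.13 ± 0.168), and on day 12 the groups overlapped at -0.21. SESN2, which restrains mTORC1 when leucine is scarce, was lower on day 8 (-0.68 ± 0.126, adjusted p = 0.00539). DDIT4, another inhibitor of mTORC1, was at 98.4, 127 and 116 CPM in CTRL and at 85.7, 91.7 and 72.7 CPM in IND on day 8 (-0.44 ± 0.112, adjusted p = 0.0265), and it was lower on day 14 too. On day 10 its log2 fold change was 0.49 ± 0.24, which did not pass the test, with replicate 2 at 297 CPM against 160 and 179 CPM, and without that library it was 0.16 ± 0.0688. DDIT4 shares 41.2% of its exon length with DDIT4-AS1 on the other strand.

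**Figure D3:**
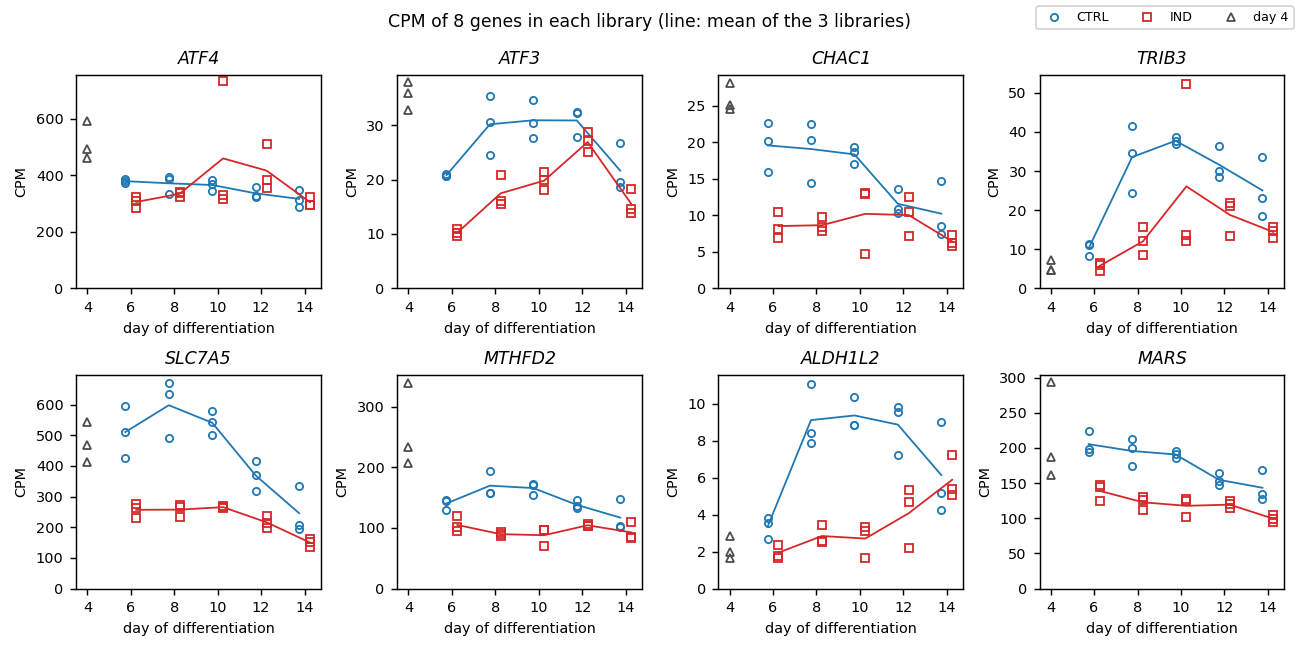
CPM in each of the 33 libraries (points) against day of differentiation for 8 genes, with CTRL as blue circles, IND as red squares, day 4 as grey triangles and lines through the group means. SLC7A5, MTHFD2 and MARS lie lower in every IND library than in any CTRL library on day 8, ATF4 overlaps, and IND replicate 2 of day 10 is the high point of ATF4 (735 CPM) and TRIB3 (52.3 CPM).

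Among the transcription factors, ATF3, a stress-induced member of the ATF family, had the largest change averaged over the 5 days with all libraries. That average was -0.63 ± 0.0673, and CEBPB followed with -0.44 ± 0.107. On day 10 without IND replicate 2 CEBPB changed more than ATF3. ATF3 was at 20.7, 20.6 and 21.1 CPM in CTRL and at 9.57, 10.2 and 10.9 CPM in IND on day 6 (-1.01 ± 0.132, adjusted p = 0.000269). On day 8 it was at 24.6, 30.6 and 35.3 CPM in CTRL and 20.9, 15.5 and 16 CPM in IND (-0.77 ± 0.155, adjusted p = 0.00899). On day 12 the groups overlapped, with 27.8, 32.3 and 32.5 CPM in CTRL and 27, 28.7 and 25 CPM in IND. On day 10 the change of -0.64 ± 0.145 did not pass the test (adjusted p = 0.0923), and without IND replicate 2 it was -0.65 ± 0.112 (adjusted p = 0.0012).

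ATF4 (chr22:39519695-39522685), the factor at the head of the response, was the most abundant gene of the set per length, with a mean of 148 FPKM over the 33 libraries. It stood at 379, 372 and 388 CPM in CTRL and at 308, 325 and 284 CPM in IND on day 6, which did not overlap, yet the change of -0.29 ± 0.0919 did not pass the test (adjusted p = 0.101). On day 8 it was at 335, 386 and 395 CPM in CTRL and 324, 339 and 342 CPM in IND (-0.14 ± 0.0761, adjusted p = 0.261), and the groups overlapped. On day 10 IND was at 316, 735 and 330 CPM against 343 to 384 CPM in CTRL, and without replicate 2 the change was -0.19 ± 0.07 (adjusted p = 0.0879). Averaged over the days it was 0.02 ± 0.084, or -0.09 ± 0.0466 without that library. Without both that library and IND replicate 1 of day 12 it was -0.11 ± 0.036, which passed the test (adjusted p = 0.0159).

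DDIT3, which encodes the pro-apoptotic factor CHOP, was at 8.22, 8.22 and 7.74 CPM in CTRL and at 4.98, 5.35 and 4.65 CPM in IND on day 6 (-0.67 ± 0.173, adjusted p = 0.0388). It was called on no later day, with log2 fold changes between -0.59 on day 10 and 0.40 on day 12. Without IND replicate 2 of day 10, at 3.02 CPM against 11.6 and 9.91 CPM, and IND replicate 1 of day 12, at 20.3 CPM against 13.3 and 11.7 CPM, these were -0.21 and 0.13. DDIT3 shares 39.6% of its exon length with MARS on the other strand.

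CEBPB, a C/EBP partner of ATF4, was lower on day 8 (-0.73 ± 0.132, adjusted p = 0.00373), and without IND replicate 2 it was lower on day 10 as well (-0.90 ± 0.0894). CEBPG, the other C/EBP partner, was lower on day 8 by a small amount (-0.28 ± 0.0777, adjusted p = 0.0349). ATF5, a relative of ATF4 linked to mitochondrial stress, was called on no day, and 23.7% of its exon length is shared with NUP62. NUPR1, a small stress-induced chromatin protein, had no more than 72 counts in a library and was tested on days 6 and 14 alone.

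Of the secreted and surface proteins, VLDLR (chr9:2621834-2660053), a lipoprotein receptor, was at 46.6, 44.5 and 56.2 CPM in CTRL and at 27.8, 23.9 and 25.6 CPM in IND on day 8 (-0.92 ± 0.105, adjusted p = 0.000212). It was lower on days 6, 8 and 12. STC2, a secreted glycoprotein, was lower on day 14 (-0.52 ± 0.103, adjusted p = 0.00574), where it stood at 48.2, 49.7 and 60.5 CPM in CTRL and at 37, 37.9 and 35.1 CPM in IND. Its log2 fold change was 0.32 on day 10 and 0.29 on day 12, neither of which passed the test. The first rested on IND replicate 2, at 97.6 CPM against 45.4 and 62.4 CPM, and without it was -0.04 ± 0.149.

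The element shown in the sequences above was set beside the calls of day 8. Of the 11 genes that held it, 10 were lower on day 8, and of the 21 genes with a window and no match, 15 were lower. A gene without a match can hold the element outside the window or with other letters, and 5 genes had no window. Whether the element separates lower genes from the others was therefore not tested. Of all 13167 genes tested on day 8 that had a window, 2.83% held the element, and of the 934 called lower it was 4.93%. Both shares include the genes of the set. ASNS was the 1 gene with the element that was not called.

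Beside the set, other genes of the pathway were counted from fixed lists. Of 16 genes for the eIF2 kinases, the subunits of eIF2 and eIF2B and the regulators of the eIF2 phosphatase, 0 were called on days 6, 10, 12 and 14 by edgeR or DESeq2, with 2 at an unadjusted p under 0.05 on each of these days. Of all genes, edgeR called 3.66%, 2.03%, 5.42% and 8.43% on these days and 14.2% on day 8, so 0 of 16 is near the share of all genes. On day 8 EIF2S2 (-0.27) and EIF2AK4 (-0.21), which encode an eIF2 subunit and the kinase that senses uncharged tRNA, were lower, and PPP1R15A (0.35), the inducible phosphatase regulator, was higher. Averaged over the 5 days EIF2S1 (-0.18), which encodes the eIF2 subunit that is phosphorylated, EIF2AK4 (-0.16) and EIF2B1 (-0.13) were lower. EIF2AK2, the kinase activated by double-stranded RNA, stood at 62.3, 45.6 and 52.8 CPM in CTRL and at 63.2, 60.5 and 52.2 CPM in IND on day 8, and it was called on no day. In IND replicate 2 of day 10 it was at 124 CPM against 54.7 and 57.1 CPM in the other two.

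Of 20 chaperone and unfolded protein response genes of the endoplasmic reticulum, 0 were called by edgeR on days 6, 10, 12 and 14, and on day 8 ATF6 alone was lower (-0.26 ± 0.0739, adjusted p = 0.0365). At an unadjusted p under 0.05 it was 1, 0, 4 and 5 genes on days 6, 10, 12 and 14, and DESeq2 called 1 on each of days 6 and 14. Of all genes, edgeR called 3.66%, 2.03%, 5.42% and 8.43% on these 4 days, so 0 of 20 is near the share of all genes. HSPA5, the main chaperone of that compartment, had a log2 fold change of 0.02 ± 0.0682 on day 8 (adjusted p = 0.883), and the median of the list was 0.06. At an average over the 5 days, DNAJB9 (0.20) and PDIA4 (0.13) were higher and ATF6 (-0.18) was lower. The summed level of this list lay between 5100 and 5370 CPM in CTRL and between 5080 and 5440 CPM in IND on day 8. On day 10 it was 5220 to 5630 CPM in CTRL and 5430 to 6490 CPM in IND, with the IND library that stood apart included. On day 12 every IND library was above every CTRL library, with 6020 to 7030 CPM against 5150 to 5690 CPM.

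Among the relatives of the set outside it, transporters, enzymes and stress response genes moved in both directions, while the tRNA synthetases called were all lower. Of all genes, 2.37% were lower and 1.29% higher on day 6, and 6.67% were lower and 7.49% higher on day 8. Of 12 other cytosolic tRNA synthetases, 3 were lower on day 6 (VARS, CARS and YARS) and 6 on day 8, among them YARS (-0.56) and VARS (-0.50), and 0 were higher on any day by edgeR or DESeq2, with 1 higher at an unadjusted p under 0.05 on day 8. Of 12 other amino acid transporters, 4 were lower and 2 higher on day 8, the lower ones including the glutamine and neutral amino acid carriers SLC1A5 (-0.54) and SLC1A4 (-1.07). SLC7A2, a cationic amino acid carrier, was higher on days 6 (0.41), 8 (0.50) and 14 (1.38), whereas its relative SLC7A1 was lower on the same days. Of 18 other folate, one-carbon and amino acid enzymes, 6 were lower and 1 higher on day 8. The lower genes included ASS1, which makes the precursor of arginine (-1.74 ± 0.126, adjusted p = 1.01e-05), and the higher gene was GLDC, which breaks down glycine (1.06 ± 0.211, adjusted p = 0.0151). Of 11 other stress response genes tested, 3 were lower and 1 higher on day 8, the lower ones including XPOT, the exporter of tRNA (-0.63), and EIF4EBP1, a brake on translation (-0.72).

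**Figure D4:**
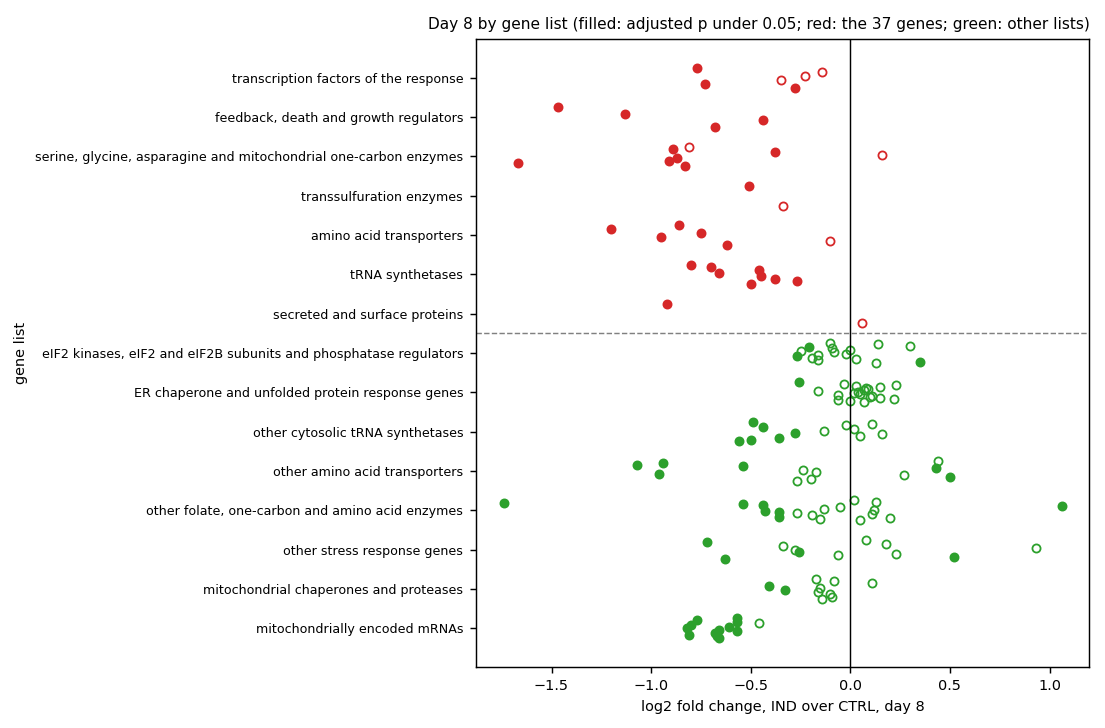
Log2 fold change of IND over CTRL on day 8 (horizontal axis) for each tested gene (points) by list (rows), with the 37 genes in red, other lists in green, and filled points for an adjusted p under 0.05. All 8 tRNA synthetases of the set are filled and left of 0, the 20 endoplasmic reticulum genes lie between -0.26 and 0.23, and 12 of 13 mitochondrially encoded mRNAs are filled and left of 0.

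Other quantities moved with induction in the same libraries. Calls in these lists stand beside 3.66%, 14.2%, 2.03%, 5.42% and 8.43% of all genes called by edgeR from day 6 to day 14. Of 13 mRNAs encoded by the mitochondrial genome, 12 were lower on day 8, with a summed level of 25300 to 25500 CPM in CTRL and 14900 to 19000 CPM in IND. On day 6 neither edgeR nor DESeq2 called any of them, with 0 at an unadjusted p under 0.05. On day 10 the sum was 24500 to 25900 CPM in CTRL and 5220 to 20500 CPM in IND. The IND range includes replicate 2, which stood apart, with 0.691% mitochondrial counts against 2.495% and 2.618% in the other two. On day 12 it was 23000 to 24200 CPM in CTRL and 15400 to 20500 CPM in IND, and on day 14 the groups overlapped. Of 10 mitochondrial chaperones and proteases, HSPA9 (-0.41) and HSPE1 were lower on day 8. Of 6 coelomic epithelium and gonad markers tested on day 8, 4 were lower, including GATA4 (-1.34) and WT1 (-2.32), and the sum of that list was 880 to 1210 CPM in CTRL and 750 to 1060 CPM in IND. Of 6 neuron markers, 4 were lower on day 8, including STMN2 (-1.97), with sums of 96.7 to 142 CPM in CTRL and 58.6 to 68.7 CPM in IND. On day 6 edgeR and DESeq2 called none of the neuron markers, 1 of which had an unadjusted p under 0.05 in edgeR. The sum of the coelomic epithelium and gonad list did not overlap on day 6, with 1200 to 1320 CPM in CTRL and 781 to 1130 CPM in IND. Of 5 endothelial markers, 3 were higher on day 8, with sums of 128 to 136 CPM in CTRL and 155 to 170 CPM in IND, and of the pluripotency markers edgeR called 0 on any day, with 1 at an unadjusted p under 0.05 on each day and 1 called by DESeq2 on days 8 and 14. The sum of the pluripotency list was 592 to 638 CPM in CTRL and 612 to 846 CPM in IND on day 8. On day 10 it was 308 to 390 CPM in CTRL and 394 to 1960 CPM in IND, again with the IND library that stood apart included. Of the intermediate mesoderm markers, OSR1 was higher on day 8 (2.30) and LHX1 lower (-0.82), with sums of 14.4 to 16.4 CPM in CTRL and 23.5 to 38.2 CPM in IND, and the sums did not overlap on days 10, 12 and 14 either. Averaged over the 5 days OSR1 was higher (1.85) and LHX1 lower (-0.98), and PAX2 (-0.25) and PAX8 (-0.68) were not called. The higher sums therefore do not stand for the list as a whole. No marker on these lists was at 0 counts throughout a CTRL or IND group. The part of these changes in the values of the 37 genes was not tested, and in bulk RNA fewer cells of a type cannot be told apart from less RNA per cell.

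The second comparison followed the 37 genes through differentiation without the drugs, with CTRL of each day set against day 4. The 5 comparisons share the same 3 day 4 libraries. The set did not move as 1 block, since TRIB3 and DDIT3 rose on all 5 days and 10 genes were lower on all 5. On day 6, 14 of 37 genes were lower and 2 higher, against 10.6% lower and 11.0% higher of all genes. On day 8 it was 12 lower and 6 higher, against 18.9% and 18.1%. On day 10 it was 14 lower and 9 higher, against 22.0% and 23.1%, and on day 12, 16 lower and 6 higher of the 36 tested, against 23.8% and 24.4%. On day 14 it was 23 lower and 4 higher, against 22.9% and 24.6%. In either direction, 21.6%, 37.1%, 45.1%, 48.1% and 47.6% of all genes were called from day 6 to day 14. The median log2 fold change of the set was -0.23 on day 6 and -0.60 on day 14.

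Replicate 3 of day 4 carried part of these counts. Without it, 15 genes were lower and 9 higher on day 6, against 14.8% and 15.2% of all genes, and 13 were lower and 13 higher on day 8, against 21.7% and 22.8%. Without it 5 genes were higher on all 5 days, with ALDH1L2, ATF5 and VLDLR beside TRIB3 and DDIT3. Lower on all 5 days were 11, with CHAC1 and STC2 in addition and without CBS, whose day 12 change of -1.22 was then -1.12 (adjusted p = 0.119). ATF5 went from 0.59 (adjusted p = 0.148) to 1.06 (adjusted p = 0.000249) on day 8. The median on day 8 then changed from -0.22 to 0.04. Leaving out CTRL replicate 1 brought the day 6 count from 16 to 8, and the share of all genes called from 21.6% to 13.0%. On days 10, 12 and 14 the counts without any 1 library lay between 16 and 25, between 19 and 26 and between 22 and 29, against 23, 22 and 27 with all libraries.

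TRIB3 showed the largest rise. It stood at 4.62, 4.71 and 7.18 CPM on day 4 and at 38.8, 36.8 and 37.6 CPM in CTRL on day 10 (2.79 ± 0.178, adjusted p = 5.86e-06). ALDH1L2 was at 1.96, 1.63 and 2.85 CPM on day 4 and rose by 2.14 ± 0.232 to 8.88, 10.4 and 8.84 CPM on day 10 (adjusted p = 0.000117). DDIT3 was at 4.29, 3.67 and 3.27 CPM on day 4 and between 11.8 and 13.2 CPM on day 10 (1.75 ± 0.168). VLDLR rose from day 8 onward, by 0.94 to 1.33 on the log2 scale. SLC7A11 was at 27, 26.6 and 42.6 CPM on day 4, reached 105, 125 and 110 CPM on day 8 (1.82 ± 0.18, adjusted p = 0.000108) and was at 20.7, 15.7 and 27.1 CPM on day 14, where it was not called against day 4. WARS was the 1 tRNA synthetase of the set that rose, on days 8, 10 and 12, by 0.33 to 0.56.

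CBS showed the largest fall, from 59.2, 59.8 and 69.1 CPM on day 4 to 14, 12.7 and 18.2 CPM in CTRL on day 14 (-2.06 ± 0.155, adjusted p = 9.26e-06). DDIT4 went from 441, 249 and 480 CPM on day 4 to 98.4, 127 and 116 CPM on day 8 (-1.77 ± 0.226, adjusted p = 0.000438). CHAC1 was at 24.6, 28.1 and 25.1 CPM on day 4 and at 8.53, 7.41 and 14.7 CPM on day 14 (-1.34 ± 0.244). ATF4 was lower than on day 4 on all 5 days, by 0.45 to 0.70 on the log2 scale. It was at 461, 493 and 593 CPM on day 4 and at 287, 314 and 349 CPM on day 14 (-0.70 ± 0.133, adjusted p = 0.00204). SLC7A1, MTHFD2, GARS, SARS, NARS, EPRS and IARS were the other genes lower on all 5 days. On day 14 these 7 lay between -1.15 (MTHFD2) and -0.57 (EPRS).

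**Figure D5:**
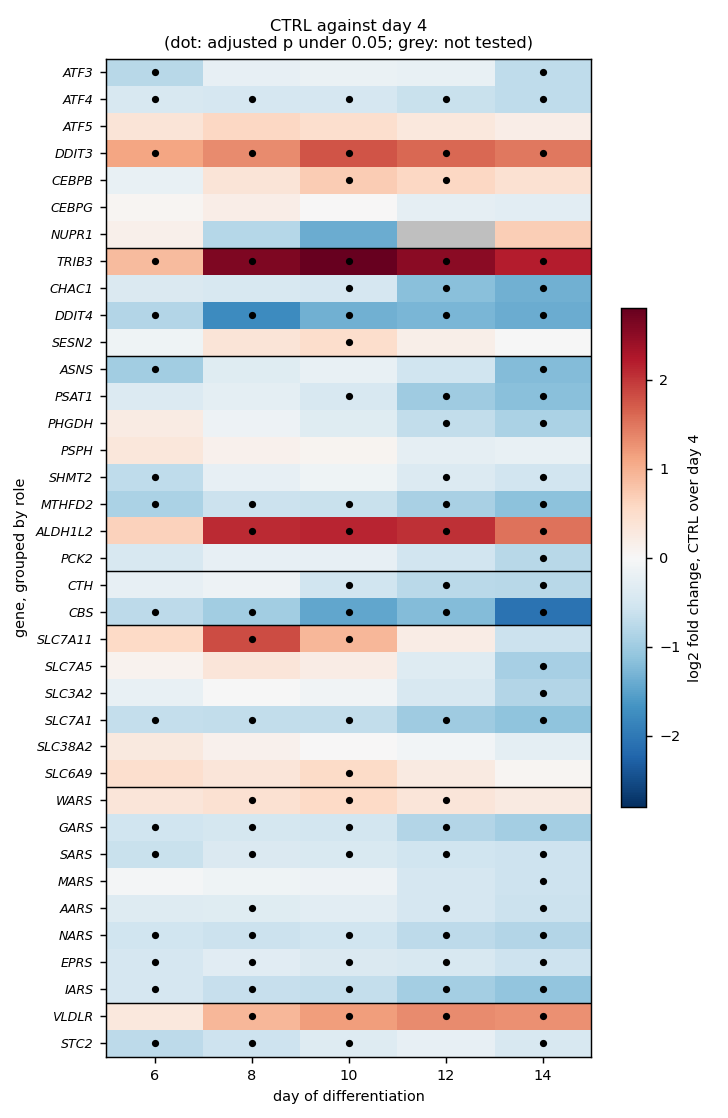
Log2 fold change of CTRL over day 4 (colour) for the 37 genes (rows, grouped by role) on days 6 to 14 (columns); a dot marks an adjusted p under 0.05 and grey marks genes not tested. TRIB3, DDIT3, ALDH1L2 and VLDLR are red from day 8 to day 14, with 2.79 for TRIB3 on day 10, and CBS is the deepest blue on day 14 with -2.06.

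Set side by side, the genes that were lower in IND had no single course in CTRL, and both comparisons use the same CTRL libraries. TRIB3 and ALDH1L2 rose in CTRL, and IND stood below that level on day 8, at 8.41 to 15.6 CPM and 2.52 to 3.44 CPM. SLC7A5 in CTRL on day 8 was not called against day 4 (0.34 ± 0.146, adjusted p = 0.102), though without replicate 3 of day 4 it was (0.46, adjusted p = 0.0119), and it was lower in IND. MTHFD2, SLC7A1 and GARS were lower than on day 4 in CTRL and lower again in IND.

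In length-corrected levels, the set spanned a wide range, from ATF4 at a mean of 148 FPKM to NUPR1 at 0.0588 FPKM over all 33 libraries. DDIT4 (86.5 FPKM), PSAT1 (79.2 FPKM), SLC7A5 (74 FPKM) and PHGDH (64.9 FPKM) followed ATF4. ALDH1L2 (0.602 FPKM) and ASNS (0.501 FPKM) were next above NUPR1 in rank, and the level of ASNS is uncertain in the exon part shared with AC079781.5. CHAC1 (6.52 FPKM), TRIB3 (5.83 FPKM) and ATF3 (5.82 FPKM) had close means, and the range of each over the libraries took in the means of the other two.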

How the data were processed

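Poly(A) RNA was sequenced as non-directional libraries. The authors' processing notes name fastp 0.23.2 for trimming, HISAT2 2.0.5 for mapping to GRCh38 and featureCounts 1.5.0-p3 for counting. The authors deposited raw fragment counts per gene, and FPKM derived from them. Coordinates and gene lengths in the table equalled those of GENCODE 29 for every gene listed here. Library depth was 23940837 to 51912815 counts. Groups followed the sample labels.

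Counts were filtered with filterByExpr, TMM-normalized and tested with edgeR 4.0.16 (R 4.3.3), quasi-likelihood with robust fit, one fit per pair of groups and one over the 30 CTRL and IND libraries for the average and the interaction. An adjusted p under 0.05 was called. DESeq2 1.42.0, limma 3.58.1 on log2(FPKM + 1) of the FPKM the authors deposited, RLE size factors, no filter, 1 fit over all 33 libraries, a replicate block and leaving out libraries were alternatives. In simulated day 6 data of 18877 genes, 98 of 100 genes changed 2-fold and 100 of 100 changed 4-fold were recovered, with 6 false among 204 calls. The simulation used the same dispersion for every gene and changed only genes above a set count level. Changes smaller than 2-fold were not simulated, so it does not give the power for such changes or for the other days. Counting error did not account for the spread within any group. The genes, lists and tests were chosen with earlier results of these data known. Library values are given for genes called lower in at least 2 IND comparisons and for ATF4, ATF3, DDIT3 and EIF2AK2, and those of STC2, CBS and ASNS were chosen after their values were seen. In each comparison up to 6 called genes per direction with the largest change could be named, and up to 3 per other list. Other genes were named to account for all 37.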

Additional observations from a re-analysis of the deposited data

How the results depend on the processing

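Counts of called genes among the 37 depended on the fit on days 6, 10, 12 and 14 and less on day 8. With 1 fit over all 33 libraries the counts were 10 on day 6, 21 on day 10, 8 on day 12 and 6 on day 14, against 18, 8, 3 and 12. The shares of all genes called moved too, to 2.05%, 14.7%, 6.88% and 3.81%, against 3.66%, 2.03%, 5.42% and 8.43%. With limma on log2(FPKM + 1) the counts were 9 on day 6, 1 on day 12 and 7 on day 14, where 1.88%, 3.72% and 6.09% of all genes were called. DESeq2 called 17 on day 10, 10 on day 12 and 8 in the interaction, against 8.29%, 8.72% and 5.89% of all genes. Without the filter on low counts it was 8 on day 12, 19 on day 14 and 11 in the interaction, against 5.23%, 6.92% and 5.52% of all genes. The causes were not tested. RLE size factors gave the same counts except on day 14 against day 4, with 26 in place of 27. Leaving out 1 library gave 11 to 15 genes for IND on day 6, 23 to 28 on day 8, 0 to 27 on day 10, 0 to 18 on day 12 and 6 to 12 on day 14. It gave 8 to 24, 13 to 26, 16 to 25, 19 to 26 and 22 to 29 for CTRL against day 4 from day 6 to day 14. Leaving out a library or a replicate number gave 0 to 3 genes for the interaction and 25 to 29 for the average of 5 days. Of all genes it was 0.191% to 4.38% and 14.3% to 27.7%. Without both IND replicate 2 of day 10 and IND replicate 1 of day 12, an alternative chosen after seeing the data, the interaction called 5, against 5.33% of all genes.

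Replicate numbers did not pair the samples. Deviations of IND and CTRL libraries with the same day and number correlated between -0.107 and 0.0781 over 15 pairs, and those of CTRL and day 4 between -0.109 and 0.138. With the replicate number as a block, 0 genes were called on day 10, 5 on day 12 and 1 in the interaction, and 18 on day 14 against 12. Of all genes, 0.0755%, 6.84%, 2.52% and 10.2% were called with the block. Of 87 values of named genes, 1026 alternatives were computed, of which 921 kept the call, 105 lost it and 0 reversed. TRIB3 on day 6 lost its call with limma and in 1 fit over all libraries. The 6 genes named on day 10 and WARS on day 12 lost it with the block. Low counts limit ASNS and NUPR1, with as few as 14 and 0 counts in a library. The 14 counts of ASNS were in IND replicate 2 of day 10, and 44.6% of its exon length is shared with AC079781.5.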
